A study of Mus musculus with 23 samples.

Results

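The 6 genes described here code neuropilin 1 (Nrp1), the membrane semaphorins Sema4a and Sema4d, and the plexins Plxnb2, Plxnc1 and Plxnd1. They were found as all probe sets annotated to 1 of these genes alone, which gave 17 of the 45101 probe sets of the array: 4 for Nrp1, 2 for Sema4a, 3 for Sema4d, 1 for Plxnb2, 6 for Plxnc1 and 1 for Plxnd1. In the comparison across genes they were 6 of 18194 genes, each read from its brightest probe set, the one whose mean was highest. Mouse CD4+ T cells had been sorted by surface CD49f (integrin alpha 6) and surface CD25 (a chain of the receptor for interleukin-2), which gave 4 gates: 7 arrays without either protein (CD25-CD49f-), 7 with CD49f alone (CD25-CD49f+), 5 with CD25 alone (CD25+CD49f-) and 4 with both (CD25+CD49f+). The study asked how gene expression differs among these gates. Below, the CD25+ gates are the pair that carry CD25 and differ in CD49f, the CD49f+ gates are the pair that carry CD49f and differ in CD25, and the CD25- and CD49f- gates are named in the same way. The labels call all samples biological replicates from female animals, while strain, age, organ, any treatment and any pooling of animals are not given in the sources used here.

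Neuropilins and plexins are the receptors of semaphorins, a family of secreted and membrane-bound guidance proteins. Neuropilin 1 binds class 3 semaphorins and vascular endothelial growth factor, has little signalling activity of its own and works together with plexins, whose cytoplasmic part acts on small GTPases and through them on the cytoskeleton and on integrin adhesion. In mice neuropilin 1 is a common surface marker of thymus-derived regulatory T cells (Treg cells), and Sema4a, carried by dendritic cells and T cells, is a ligand of neuropilin 1 on Treg cells and also of plexins of the B and D types. Sema4d (CD100) is abundant on resting T cells and binds B-type plexins and CD72, Plxnc1 is the receptor of Sema7a, and Plxnd1 is a receptor of Sema3e and of Sema4a.

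The start regions of Nrp1 and Sema4a are shown because these were the members with the largest differences between gates, in opposite directions. The windows are those of RefSeq on build GRCm38.p6, 250 bases before and 50 bases after an annotated start, read 5′ to 3′ on the gene's strand, with CpG dinucleotides in capitals. The Nrp1 window is chr8:128358823-128359122, plus strand, and begins inside the gene, which RefSeq places at chr8:128358591-128505476. The Sema4a window is chr3:88461133-88461432, minus strand, and is 1 of 4 listed for the gene, which lies at chr3:88435959-88461182.
Nrp1: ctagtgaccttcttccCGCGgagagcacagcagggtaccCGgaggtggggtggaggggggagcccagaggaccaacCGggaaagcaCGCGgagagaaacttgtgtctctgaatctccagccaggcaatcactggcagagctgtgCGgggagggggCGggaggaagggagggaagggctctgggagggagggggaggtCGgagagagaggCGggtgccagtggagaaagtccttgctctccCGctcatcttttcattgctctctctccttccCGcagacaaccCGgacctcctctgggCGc
Sema4a: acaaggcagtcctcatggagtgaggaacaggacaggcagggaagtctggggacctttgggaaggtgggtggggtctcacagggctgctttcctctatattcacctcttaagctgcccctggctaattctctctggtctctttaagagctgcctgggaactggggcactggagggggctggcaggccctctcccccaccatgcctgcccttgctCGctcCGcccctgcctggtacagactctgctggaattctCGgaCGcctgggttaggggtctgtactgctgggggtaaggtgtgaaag
The Nrp1 window held 14 CpG dinucleotides at 64.0% GC and this Sema4a window 4 at 59.7% GC, against a median of 7 CpG dinucleotides over all 32851 windows of that length. The other Sema4a windows held 5, 14 and 7 CpG dinucleotides, so the printed one had the fewest. Searched on both strands, the forkhead motif TGTTTAC (in 3.65% of all windows), the STAT motif TTCNNNGAA (8.3%), the RUNX motif TGTGGT (16.8%), the AP-1 motif TGANTCA (7.81%) and the NFAT motif TGGAAA (21.4%) had no match in the Nrp1 window or in any Sema4a window.

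The gates held T cells by their transcripts. The mean over 8 CD4 T cell markers was between 10.75 and 11 on the log2 scale in every gate. Foxp3, the transcription factor of Treg cells, averaged 4.74, 8.25, 9.79 and 9.85 in the CD25-CD49f-, CD25-CD49f+, CD25+CD49f- and CD25+CD49f+ gates, and Itga6, which codes CD49f, averaged 9.79, 9.36, 9.64 and 9.81 in that order, so that its transcript did not follow the protein gate. Markers of other cells were also read: 10 dendritic cell markers averaged 7.99 in CD25-CD49f- cells (7.33 to 8.54 by array), 6.79 in CD25-CD49f+ cells (6.61 to 7.01), 7.22 in CD25+CD49f- cells (7.02 to 7.29) and 6.61 in CD25+CD49f+ cells (6.23 to 6.82). Group means of macrophage markers ran from 6.33 to 6.87 and those of B cell markers from 5.85 to 6.10. Of 23 arrays, 4 stood apart from their group by correlation (CD25-CD49f- replicates 1 and 7, CD25-CD49f+ replicate 1 and CD25+CD49f- replicate 5). Despite the label, 12 arrays showed no Y-linked transcripts and 11 showed them, CD25+CD49f- replicate 5 together with Xist, and every gate held both kinds. A transcript that is absent still gives a signal, and its size depends on the probe set: Xist read 5.65 to 6.5 on the 10 arrays without it, and Eif2s3y and Kdm5d read at most 4.07 on the 12 arrays without Y-linked transcripts. Whether a low value of another gene lies above its own background therefore cannot be read from these levels.

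A gene is called here where limma, fitted over all 18194 genes and the 4 gates together, gave an adjusted p under 0.05. Between the CD25+ gates Nrp1 was higher and Sema4a lower with CD49f, which makes 2 of the 6 genes called, where 1.82% of all genes were. Between the CD25- gates 5 of the 6 were called, Nrp1, Plxnc1 and Plxnd1 higher and Sema4a and Plxnb2 lower with CD49f, where 13.4% of all genes were. Between the CD49f+ gates and again between the CD49f- gates 3 of the 6 were called, Nrp1 and Plxnd1 higher and Sema4a lower with CD25, where 5.72% and 14% of all genes were. Between the gates with both and with neither protein 4 of the 6 were called against 13.2% of all genes, and between the gates with a single one of the proteins 3 against 8.86%. The interaction, which asks whether the CD49f difference differs between CD25+ and CD25- cells, was called for 2 of the 6 against 5.31%. Read by probe set, 5, 9, 6, 7, 8 and 5 of the 17 were called in these 6 comparisons and 4 in the interaction, where 1.11%, 9.83%, 3.23%, 9.94%, 9.28%, 5.13% and 3.12% of all probe sets were. The comparisons share gates and are not independent of each other.

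Nrp1 was lowest in CD25-CD49f- cells, intermediate in CD25-CD49f+ and CD25+CD49f- cells, and highest in CD25+CD49f+ cells. It was thus higher with CD49f in both CD25 gates and higher with CD25 in both CD49f gates. All 4 probe sets gave this order of the lowest and the highest gate. The intermediate gates overlapped by the brightest probe set. By probe set 1418084_at the CD25-CD49f+ arrays (from 9.014) lay just above the CD25+CD49f- arrays (up to 9.012). In sorted bulk samples fewer cells with a transcript and less transcript per cell cannot be told apart.

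By the brightest probe set, 1448943_at, the 7 arrays of CD25-CD49f- cells read 5.73 to 7.78 with a median of 7.33, and the 7 of CD25-CD49f+ cells read 9.21 to 10.10 with a median of 9.95. The 5 arrays of CD25+CD49f- cells read 9.92, 9.70, 9.63, 9.64 and 9.56. The 4 arrays of CD25+CD49f+ cells read 10.86, 10.93, 10.36 and 10.78. Every CD25+CD49f+ array lay above every other array, every CD25-CD49f- array lay below every other, and the middle gates overlapped. Group means were 7.22 ± 0.71 (SD, n = 7), 9.86 ± 0.30 (SD, n = 7), 9.69 ± 0.14 (SD, n = 5) and 10.73 ± 0.26 (SD, n = 4).

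**Figure D1:**
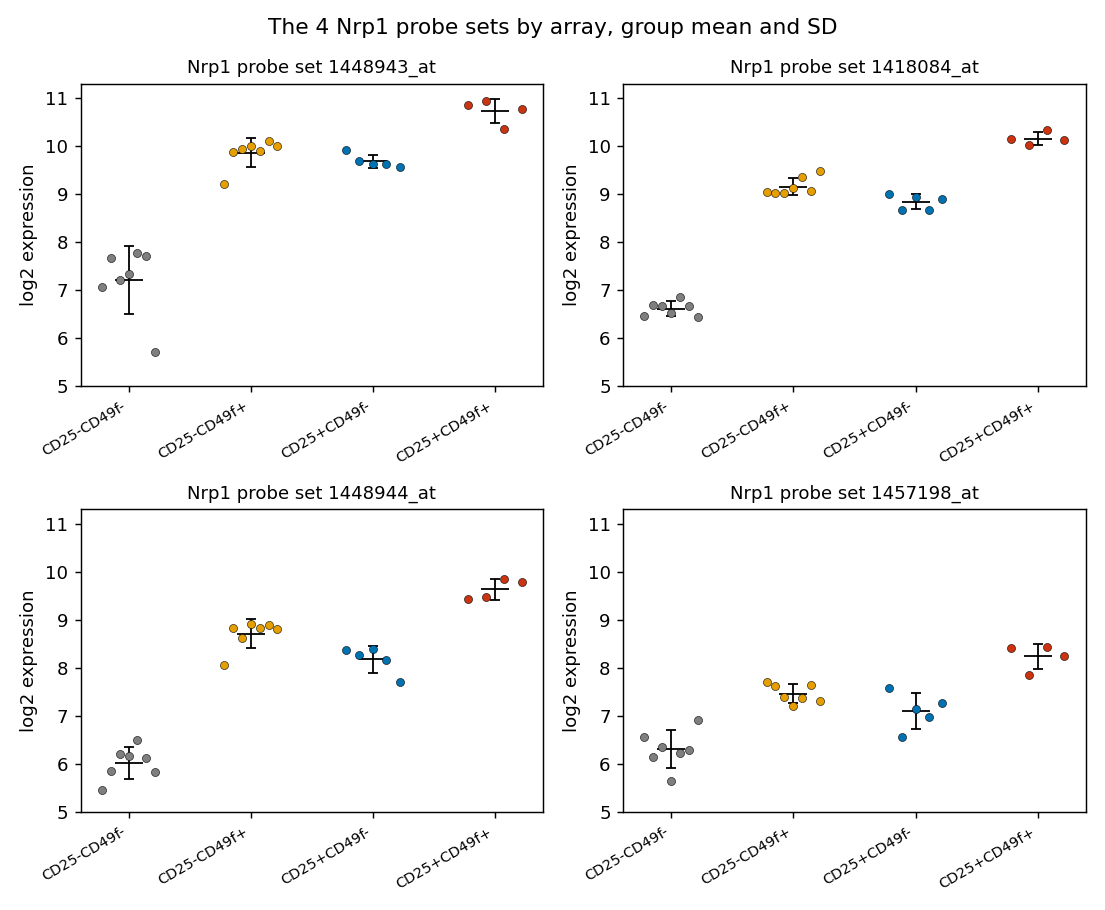
Log2 expression of the 4 Nrp1 probe sets (vertical axis, all panels on the same range) in the 4 gates (horizontal axis); points are arrays and bars the group mean with its SD. In each panel the 4 CD25+CD49f+ arrays lie above all others and the CD25-CD49f- arrays below the CD25+CD49f+ and CD25-CD49f+ arrays; the single low point of CD25-CD49f- cells at 5.73 in the first panel is replicate 7.

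Within CD25- cells, CD49f went with 2.65 ± 0.22 (SE) more Nrp1 on the log2 scale, or 6.27-fold (limma adjusted p = 1.04e-09). Within CD49f- cells, CD25 went with 2.47 ± 0.24 (SE) more, or 5.55-fold (adjusted p = 1.44e-08). Both calls held with each array left out and in the arrays with and without Y-linked transcripts taken apart (2.97 and 2.41 for the first, 2.57 and 2.45 for the second). From the gate with neither protein to the gate with both, the rise was 3.52 ± 0.25 (SE), or 11.4-fold (adjusted p = 1.02e-10). The middle gates, CD25 alone minus CD49f alone, differed by -0.18 with a 95% interval of -0.67 to 0.31 (adjusted p = 0.862). The mean of the probe sets gave -0.35 there (adjusted p = 0.0183), so the call depends on how the probe sets are joined.

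The added level in CD25+CD49f+ cells was smaller and rested on more than 1 probe set. Against CD25+CD49f- cells the brightest probe set gave 1.04 ± 0.27 (SE), or 2.06-fold (limma adjusted p = 0.0451), and against CD25-CD49f+ cells 0.87 ± 0.25 (SE), or 1.82-fold (adjusted p = 0.0419). These 2 calls were narrow. The first held with 6 of the 23 arrays left out in turn (CD25-CD49f- replicates 2, 5, 6 or 7, CD25-CD49f+ replicate 1 or CD25+CD49f+ replicate 3) and was lost with any of the other 17, at adjusted p up to 0.159. The second was lost with 13 of the 23 left out (CD25-CD49f- replicates 3 and 4, CD25-CD49f+ replicates 1, 2, 3, 4, 5 and 7, CD25+CD49f- replicates 3 and 4, CD25+CD49f+ replicates 1, 2 and 4), at adjusted p up to 0.145. The value stayed between 0.98 and 1.17 for the first and between 0.76 and 0.99 for the second. In arrays without Y-linked transcripts the differences were 1.09 (adjusted p = 0.103) and 1.14 (adjusted p = 0.01001), and in arrays with them 0.96 (adjusted p = 0.857) and 0.56 (adjusted p = 0.9997). Without the 4 arrays that stood apart they were 1.01 (adjusted p = 4.05e-06) and 0.76 (adjusted p = 2.59e-05).

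The other 3 Nrp1 probe sets gave the same direction with less spread between arrays in CD25-CD49f- cells. Probe set 1418084_at read 6.45 to 6.86 (median 6.67) in CD25-CD49f- cells and 9.01 to 9.48 (median 9.07) in CD25-CD49f+ cells. It read 9.01, 8.67, 8.95, 8.68 and 8.89 in CD25+CD49f- cells. In CD25+CD49f+ cells it read 10.14, 10.02, 10.34 and 10.12. Here the CD25+CD49f+ arrays exceeded every other array by more than the spread within any gate. Over all 45101 probe sets it rose by 1.32 with CD49f between the CD25+ gates (adjusted p = 1.76e-08) and by 0.996 with CD25 between the CD49f+ gates, and both calls held with each of the 23 arrays left out. In arrays without Y-linked transcripts these differences were 1.24 (adjusted p = 0.00234) and 1.03 (adjusted p = 0.00207), and in arrays with them 1.39 (adjusted p = 0.00199) and 0.93 (adjusted p = 0.0246). Probe set 1448944_at gave 1.45 (adjusted p = 2.42e-05) and 0.92, called with every array left out, and 1457198_at gave 1.13 (adjusted p = 0.00166) and 0.77. The 0.77 of 1457198_at was called in 20 of the 23 fits with an array left out, with an adjusted p of at most 0.0832. In arrays without Y-linked transcripts neither of these probe sets was called, with 1.13 and 0.84 for 1448944_at (adjusted p = 0.381 and 0.254) and 1.06 and 0.65 for 1457198_at (adjusted p = 0.732 and 0.624). In arrays with them 1448944_at gave 1.72 and 0.97, both called (adjusted p = 0.00127 and 0.0446), and 1457198_at gave 1.21, called (adjusted p = 0.0470), and 0.89, not called (adjusted p = 0.142).

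The CD49f difference of Nrp1 was smaller in CD25+ than in CD25- cells. The interaction was -1.60 ± 0.35 (SE, limma adjusted p = 0.00397), and it was -1.32 in arrays without Y-linked transcripts (adjusted p = 0.0453) and -2.01 in arrays with them (adjusted p = 0.199). Probe sets 1418084_at and 1448944_at gave -1.23 and -1.24, both called. Probe set 1457198_at gave -0.03 and was not called, so the 4 probe sets did not agree on an interaction.

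The Treg transcription factor Ikzf2 (Helios) averaged 8.57, 11.20, 11.78 and 12.06 by gate, in the order of the Foxp3 values above. Between the CD25+ gates neither Foxp3 (0.06, adjusted p = 0.999) nor Ikzf2 (0.28, adjusted p = 0.628) was called, where Nrp1 was. Of 5 Treg markers, 0 were called between these gates, where 1.82% of all genes were. All 5 were higher with CD49f between the CD25- gates, where 13.4% of all genes were called. The part of Treg cells in the Nrp1 differences within CD25+ and within CD25- cells was not tested.

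Sema4a ran in the opposite order to Nrp1 at the ends, with the highest level in CD25-CD49f- cells and the lowest in CD25+CD49f+ cells. Each step was called: it fell with CD49f in both CD25 gates and fell further with CD25 in both CD49f gates. By its brightest probe set no 2 gates overlapped.

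The 7 arrays of CD25-CD49f- cells read 10.14 to 10.56 with a median of 10.33, and the 7 of CD25-CD49f+ cells read 9.53 to 10.06 with a median of 9.90. The 5 arrays of CD25+CD49f- cells read 8.66, 8.70, 8.47, 8.63 and 9.06. The 4 arrays of CD25+CD49f+ cells read 7.55, 8.14, 8.15 and 8.02. The gates thus formed 4 separate ranges, with the CD25+ gates well below the CD25- gates. Group means were 10.32 ± 0.16 (SD, n = 7), 9.83 ± 0.23 (SD, n = 7), 8.70 ± 0.21 (SD, n = 5) and 7.97 ± 0.28 (SD, n = 4).

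**Figure D2:**
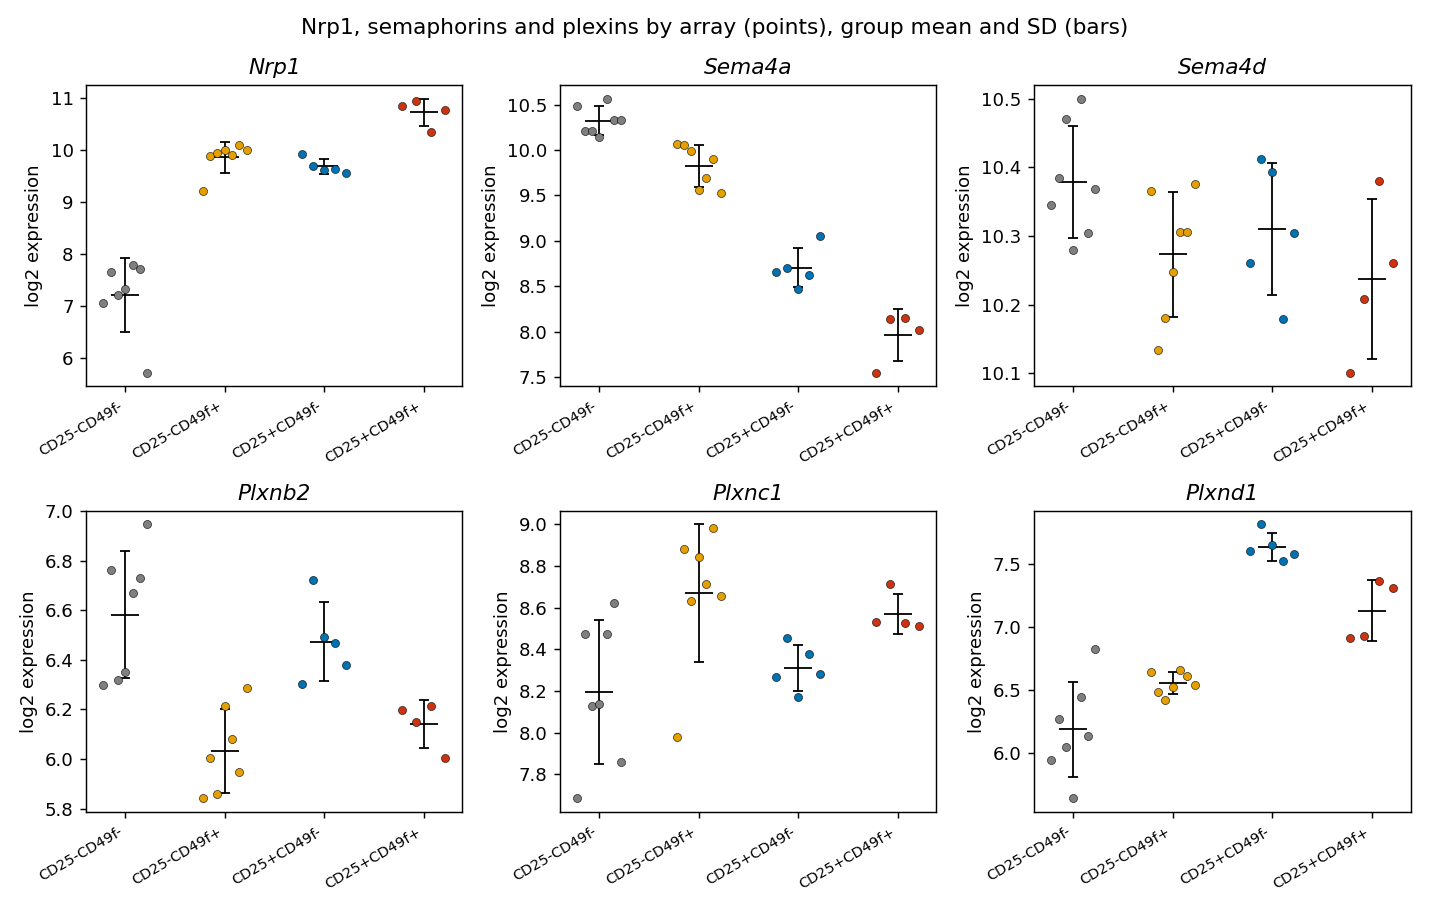
Log2 expression of the 6 genes by their brightest probe set (vertical axes, each on its own range) in the 4 gates (horizontal axes); points are arrays and bars the group mean with its SD. Nrp1 is highest and Sema4a lowest in CD25+CD49f+ cells, Sema4d spans only 10.10 to 10.50 over all arrays, and Plxnd1 is highest in CD25+CD49f- cells.

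The CD25 differences of Sema4a were the larger ones. Between the CD49f+ gates the difference was -1.86 ± 0.13 (SE) on the log2 scale (limma adjusted p = 3.16e-10), or 3.63-fold less with CD25. Between the CD49f- gates it was -1.62 ± 0.12 (SE), or 3.07-fold less (adjusted p = 1.84e-10). With CD49f, Sema4a differed by -0.74 ± 0.14 (SE) in CD25+ cells (adjusted p = 0.00234) and by -0.50 ± 0.11 (SE) in CD25- cells (adjusted p = 0.00241). The test of the difference between these 2 values was not passed (interaction -0.24, 95% interval -0.61 to 0.13, adjusted p = 0.651). Cells with CD25 alone differed from those with CD49f alone by -1.12 ± 0.12 (SE, adjusted p = 2.28e-07), and cells with both proteins had 5.13-fold less than cells with neither (adjusted p = 6.31e-13).

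The CD25 differences of Sema4a were called in arrays with and without Y-linked transcripts taken apart, and the CD49f differences were not. In CD25+ cells the CD49f difference was -0.83 in arrays without them (adjusted p = 0.199) and -0.63 in arrays with them (adjusted p = 0.263). In CD25- cells it was -0.43 (adjusted p = 0.132) and -0.58 (adjusted p = 0.0573). These splits hold fewer arrays, and the sizes lay on both sides of those over all arrays.

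The brightest Sema4a probe set, 1438934_x_at, is of a kind that can also bind related transcripts, so the other one was read as well. Probe set 1448110_at averaged 9.82, 9.15, 7.77 and 7.07 in the same order of gates, with overlap between the CD25- gates (9.55 to 10.42 without and 8.78 to 9.64 with CD49f). With CD49f it differed by -0.70 in CD25+ cells (adjusted p = 0.0393 over all probe sets) and by -0.67 in CD25- cells (adjusted p = 0.00113), and with CD25 by -2.08 in CD49f+ and by -2.06 in CD49f- cells. The -0.70 was called in 12 of the 23 fits with an array left out, with an adjusted p of at most 0.249, and the other 3 differences in all 23.

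Dendritic cells carry Sema4a and some carry Nrp1, and their markers differed between the gates. Between the CD25- gates 8 of 10 dendritic cell markers and 9 of 11 markers of plasmacytoid dendritic cells were lower with CD49f. Among them were Itgax (CD11c; -1.92 ± 0.25 SE) and Siglech (-1.36 ± 0.18 SE). Between the CD25+ gates 4 of 10 dendritic and 1 of 11 plasmacytoid markers were lower with CD49f. Between the CD49f- gates 4 of 10 dendritic and 5 of 11 plasmacytoid markers were lower with CD25, and 1 and 2 were higher. Between the CD49f+ gates 0 of 10 dendritic markers were called, and 1 of 11 plasmacytoid markers was higher with CD25. Cells with CD25 alone had 4 of 10 dendritic and 4 of 11 plasmacytoid markers higher than cells with CD49f alone. Cells with both proteins had 8 of 10 dendritic and 8 of 11 plasmacytoid markers lower than cells with neither, and 1 plasmacytoid marker higher. Over all genes 13.4%, 1.82%, 14%, 5.72%, 8.86% and 13.2% were called in these comparisons, in the order given. The part of such cells in the differences of Sema4a and Nrp1 was not tested.

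**Figure D3:**
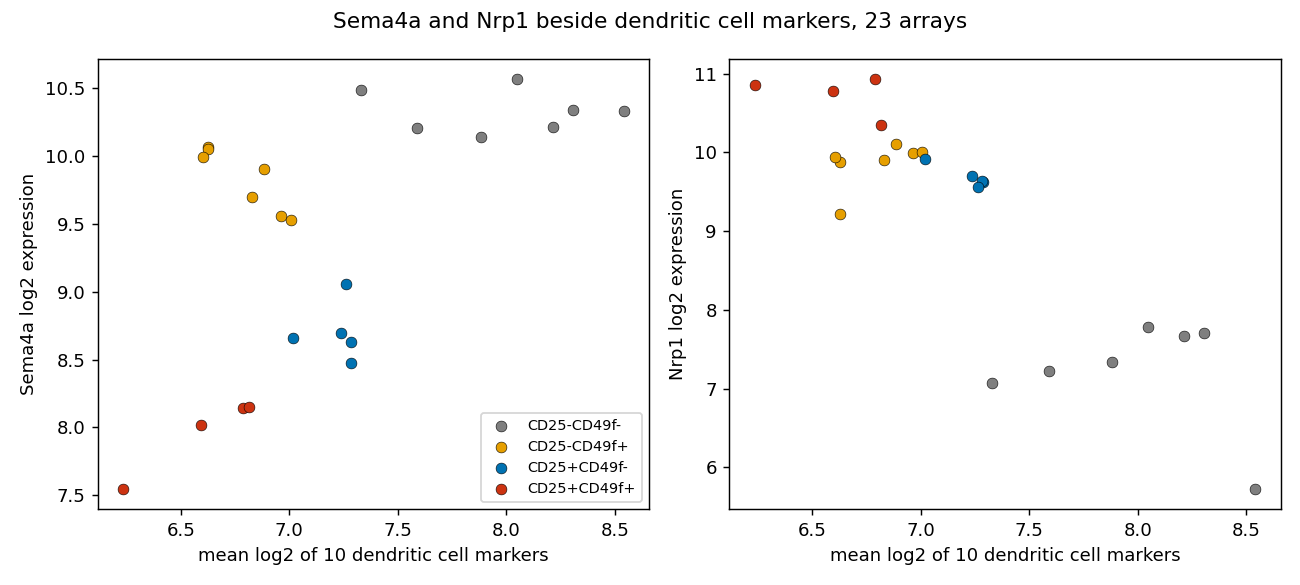
Log2 expression of Sema4a (left) and Nrp1 (right) against the mean log2 level of 10 dendritic cell markers (horizontal axes) on the 23 arrays, coloured by gate. CD25-CD49f- arrays (markers 7.33 to 8.54) have the highest Sema4a and the lowest Nrp1, and CD25-CD49f+ arrays (6.61 to 7.01) carry more Sema4a than CD25+CD49f- arrays (7.02 to 7.29).

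Sema4d was high and nearly level over the gates. Its brightest probe set, 1420824_at, read 10.10 to 10.50 over all 23 arrays, with group means of 10.38 ± 0.08 (SD, n = 7), 10.27 ± 0.09 (SD, n = 7), 10.31 ± 0.10 (SD, n = 5) and 10.24 ± 0.12 (SD, n = 4) in the gates in the order above. Every pair of gates overlapped. Of the 6 comparisons 0 were called by limma, 0 had an unadjusted p under 0.05, and the 95% intervals ran from -0.29 to 0.18 in all. The other 2 probe sets read 5.02 to 6.62, and of their differences only that of 1434596_at between the gates with CD25 alone and CD49f alone was called (0.62, adjusted p = 0.0103 over all probe sets), with group means of 5.82 and 5.20.

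The 3 plexins differed from each other in their order over the gates. Plxnd1, the receptor of Sema3e and Sema4a, was highest in CD25+CD49f- cells and lowest in CD25-CD49f- cells. The 7 arrays of CD25-CD49f- cells read 5.64 to 6.83 (median 6.13), and the 7 of CD25-CD49f+ cells 6.42 to 6.66 (median 6.54). Those of CD25+CD49f- cells read 7.60, 7.82, 7.65, 7.53 and 7.58, and those of CD25+CD49f+ cells 6.91, 6.93, 7.37 and 7.31. All CD25+ arrays lay above all CD25- arrays, all CD25+CD49f- arrays above all CD25+CD49f+ arrays, and the CD25- gates overlapped.

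Between CD49f- gates CD25 went with 1.45 ± 0.14 (SE) more Plxnd1 on the log2 scale, 2.73-fold (limma adjusted p = 9.60e-09), called with each array left out. Cells with CD25 alone had 1.08 ± 0.14 (SE) more than cells with CD49f alone (adjusted p = 2.34e-06). Between CD49f+ gates the CD25 difference was 0.57 ± 0.15 (SE, adjusted p = 0.0144), and it was lost without CD25+CD49f+ replicate 3 (adjusted p = 0.0855) or 4 (adjusted p = 0.0779). The arrays without Y-linked transcripts gave 0.40 there (adjusted p = 0.419) and those with them 0.73 (adjusted p = 0.0915). The CD49f difference was 0.37 ± 0.12 (SE) in CD25- cells at an adjusted p of 0.0492, and this call held only without CD25-CD49f- replicate 5 or 7 or CD25+CD49f+ replicate 3. In CD25+ cells it was -0.51 (95% interval -0.83 to -0.18) and not called (adjusted p = 0.136), although the gates did not overlap. That difference was called without CD25-CD49f- replicate 7 (adjusted p = 0.0224) and without the 4 arrays that stood apart (-0.52, adjusted p = 0.0218). CD25-CD49f- replicate 7, the array with the highest dendritic cell markers, also had the highest Plxnd1 of its gate.

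The CD49f difference of Plxnd1 differed between CD25+ and CD25- cells, with an interaction of -0.87 ± 0.20 (SE, limma adjusted p = 0.00636). It was -1.28 in arrays without Y-linked transcripts (adjusted p = 0.0112) and -0.44 in arrays with them (adjusted p = 0.652). Both Nrp1 and Plxnd1 thus had a negative interaction, but in CD25+ cells Nrp1 was higher with CD49f and Plxnd1 was not.

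Plxnb2, a receptor of Sema4d and Sema4a, was lower with CD49f between the CD25- gates. The 7 arrays of CD25-CD49f- cells read 6.30 to 6.95 (median 6.67) and the 7 of CD25-CD49f+ cells 5.84 to 6.29 (median 6.0). Those of CD25+CD49f- cells read 6.30, 6.72, 6.49, 6.47 and 6.38, and those of CD25+CD49f+ cells 6.20, 6.15, 6.22 and 6.0. No CD49f+ array reached a CD49f- array. Between CD25- gates the difference was -0.55 ± 0.10 (SE, limma adjusted p = 2.82e-04), called with each array left out. In arrays without Y-linked transcripts it was -0.43 (adjusted p = 0.0609) and in those with them -0.71 (adjusted p = 0.00495). Between CD25+ gates it was -0.33 (95% interval -0.59 to -0.07) and not called (adjusted p = 0.382). Cells with both proteins differed from cells with neither by -0.44 ± 0.12 (SE, adjusted p = 0.0113), lost without CD25+CD49f+ replicate 4 (adjusted p = 0.0562). Arrays without Y-linked transcripts gave -0.24 there (adjusted p = 0.564) and those with them -0.70 (adjusted p = 0.00954). Cells with CD25 alone had 0.44 ± 0.11 (SE) more than cells with CD49f alone (adjusted p = 0.0101), called with each array left out. In arrays without and with Y-linked transcripts this was 0.53 (adjusted p = 0.0949) and 0.34 (adjusted p = 0.265). The means of Plxnb2 and of the dendritic cell markers were both lower with CD49f in the CD25- gates and in the CD25+ gates. From CD25-CD49f- to CD25+CD49f- cells the markers went from 7.99 to 7.22 and Plxnb2 from 6.58 to 6.47. From CD25-CD49f+ to CD25+CD49f+ cells the markers went from 6.79 to 6.61 and Plxnb2 from 6.03 to 6.14. The part of dendritic cells in the Plxnb2 differences was not tested.

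Plxnc1, the receptor of Sema7a, moved little. CD25-CD49f- arrays read 7.68 to 8.62 (median 8.14), CD25-CD49f+ arrays 7.98 to 8.98 (median 8.71), CD25+CD49f- arrays 8.27, 8.46, 8.17, 8.38 and 8.28, and CD25+CD49f+ arrays 8.53, 8.71, 8.53 and 8.51. In CD25- cells CD49f went with 0.47 ± 0.14 (SE) more (limma adjusted p = 0.0203), with overlapping gates. The call was lost without CD25-CD49f- replicate 1 (adjusted p = 0.0544) or CD25-CD49f+ replicate 6 (adjusted p = 0.0554), and the mean of the 6 probe sets gave 0.16 (adjusted p = 0.236). Arrays without Y-linked transcripts gave 0.48 (adjusted p = 0.207) and those with them 0.47 (adjusted p = 0.229), neither called. In CD25+ cells the difference was 0.26 (95% interval -0.10 to 0.62) and not called, although the gates did not overlap. Between the gates with CD25 alone and CD49f alone it was -0.36 and not called (adjusted p = 0.1815), and it was called without CD25-CD49f+ replicate 1 (-0.47, adjusted p = 0.0176). Of the other 5 probe sets, 1423213_at averaged 7.63 to 8.05 by gate with no called difference, and 4 averaged 3.34 to 5.02. Of these 4, 1423214_at gave a called 0.52 between the CD25- gates (adjusted p = 0.0343). That call held in 14 of the 23 fits with an array left out (adjusted p up to 0.0887). It was lost in arrays without Y-linked transcripts (0.70, adjusted p = 0.143) and in those with them (0.29, adjusted p = 0.557).

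**Figure D4:**
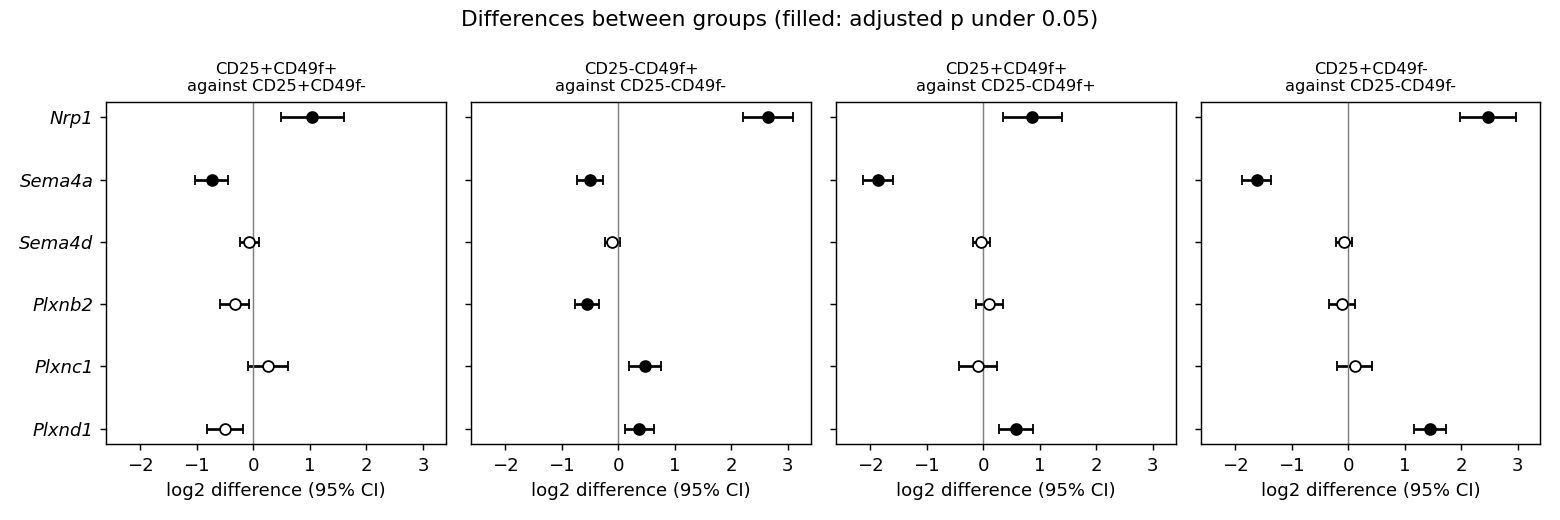
Log2 differences of the 6 genes with 95% intervals (horizontal axis) in the 4 comparisons that change 1 surface protein; filled points have a limma adjusted p under 0.05. Nrp1 lies right of 0 and Sema4a left of 0 in all 4 panels, and Sema4d has no filled point.

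Other semaphorins and receptors were read from lists that hold 83 genes with the 6 above, 81 of them measured. Across all lists, the 6 included, 2 genes were higher and 2 lower with CD49f between the CD25+ gates, and 10 were higher and 10 lower between the CD25- gates, where 1.82% and 13.4% of all genes were called. Of the 75 measured genes besides the 6, 1 was higher and 1 lower between the CD25+ gates. Between the CD25- gates 7 of these 75 were higher and 8 lower. The median difference of the 81 was 0.03 in the first and -0.02 in the second comparison, against 0.01 and -0.02 over all genes. Of the 7 class 3 semaphorins, the secreted ligands of neuropilins, 0 were called by limma in any comparison, and 1 had an unadjusted p under 0.05, between the CD25+ gates. Over all genes 1.82% to 14% were called, depending on the comparison. Nrp2, the other neuropilin, averaged at most 6.04 in every gate and is named here after its values were seen.

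Of the 13 membrane semaphorins, Sema4f had the order of Sema4a, with means of 8.88 ± 0.23 (SD, n = 7), 8.37 ± 0.11 (SD, n = 7), 7.68 ± 0.26 (SD, n = 5) and 7.32 ± 0.14 (SD, n = 4) in the order above. With CD25 it differed by -1.05 ± 0.12 (SE) in CD49f+ cells (limma adjusted p = 1.19e-06) and by -1.21 ± 0.11 (SE) in CD49f- cells (adjusted p = 1.02e-08), and with CD49f by -0.52 ± 0.10 (SE) in CD25- cells (adjusted p = 7.76e-04). In arrays with Y-linked transcripts the last was -0.33 and not called (adjusted p = 0.404). It was not called between the CD25+ gates. Sema6d, a ligand of A-type plexins, had a different order, with means of 5.74, 6.28, 6.62 and 5.75. It was lower with CD49f in CD25+ cells (-0.87 ± 0.18 SE, adjusted p = 0.00778) and higher in CD25- cells (0.54 ± 0.15 SE, adjusted p = 0.0135), with an interaction of -1.40 ± 0.24 (SE). These Sema4f and Sema6d calls held with each array left out. In the smaller sets of arrays split by Y-linked transcripts the 2 Sema6d differences were not called in either set, while their signs were kept. Sema7a, the ligand of Plxnc1, averaged 6.33, 6.02, 6.15 and 5.90 in the order above. It was called lower with CD49f in CD25- cells, and this call held in 7 of the 23 fits with an array left out. Sema7a was also called lower with both proteins than with neither, in 21 of these 23 fits.

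Among the 9 plexins, Plxna1 and Plxna3 were called besides the 3 described. Plxna1 was higher with CD25 by 0.40 ± 0.10 (SE) in CD49f+ cells (limma adjusted p = 0.0152, lost without CD25+CD49f+ replicate 4). In CD49f- cells it was higher with CD25 by 0.33 ± 0.10 (SE, adjusted p = 0.0177, lost without CD25+CD49f- replicate 3 or 5). Its group means ran from 5.92 to 6.32. Plxna3 was called only between the gates with both and with neither protein, with means of 6.73 and 6.43. That call held in 17 of the 23 fits with an array left out (limma adjusted p up to 0.0943). Itgb1, the partner of CD49f in an integrin and also a chain of the integrin that binds Sema7a, was higher with CD49f by 1.74 ± 0.29 (SE) in CD25+ cells and by 2.13 ± 0.23 (SE) in CD25- cells (limma adjusted p = 4.73e-04 and 1.31e-07). The first was not called in either set of arrays split by Y-linked transcripts, at 1.15 without them (adjusted p = 0.144) and 2.13 with them (adjusted p = 0.0507). Vegfc, on the list as a growth factor of neuropilin receptors, averaged 3.94, 3.81, 4.60 and 5.19 in the order above. It was higher with CD25 by 1.38 ± 0.16 (SE) between the CD49f+ gates (limma adjusted p = 1.12e-06) and by 0.66 ± 0.15 (SE) between the CD49f- gates (adjusted p = 0.00210), and both calls held with each array left out. In arrays without Y-linked transcripts the second was 0.70 and not called (adjusted p = 0.152).

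**Figure D5:**
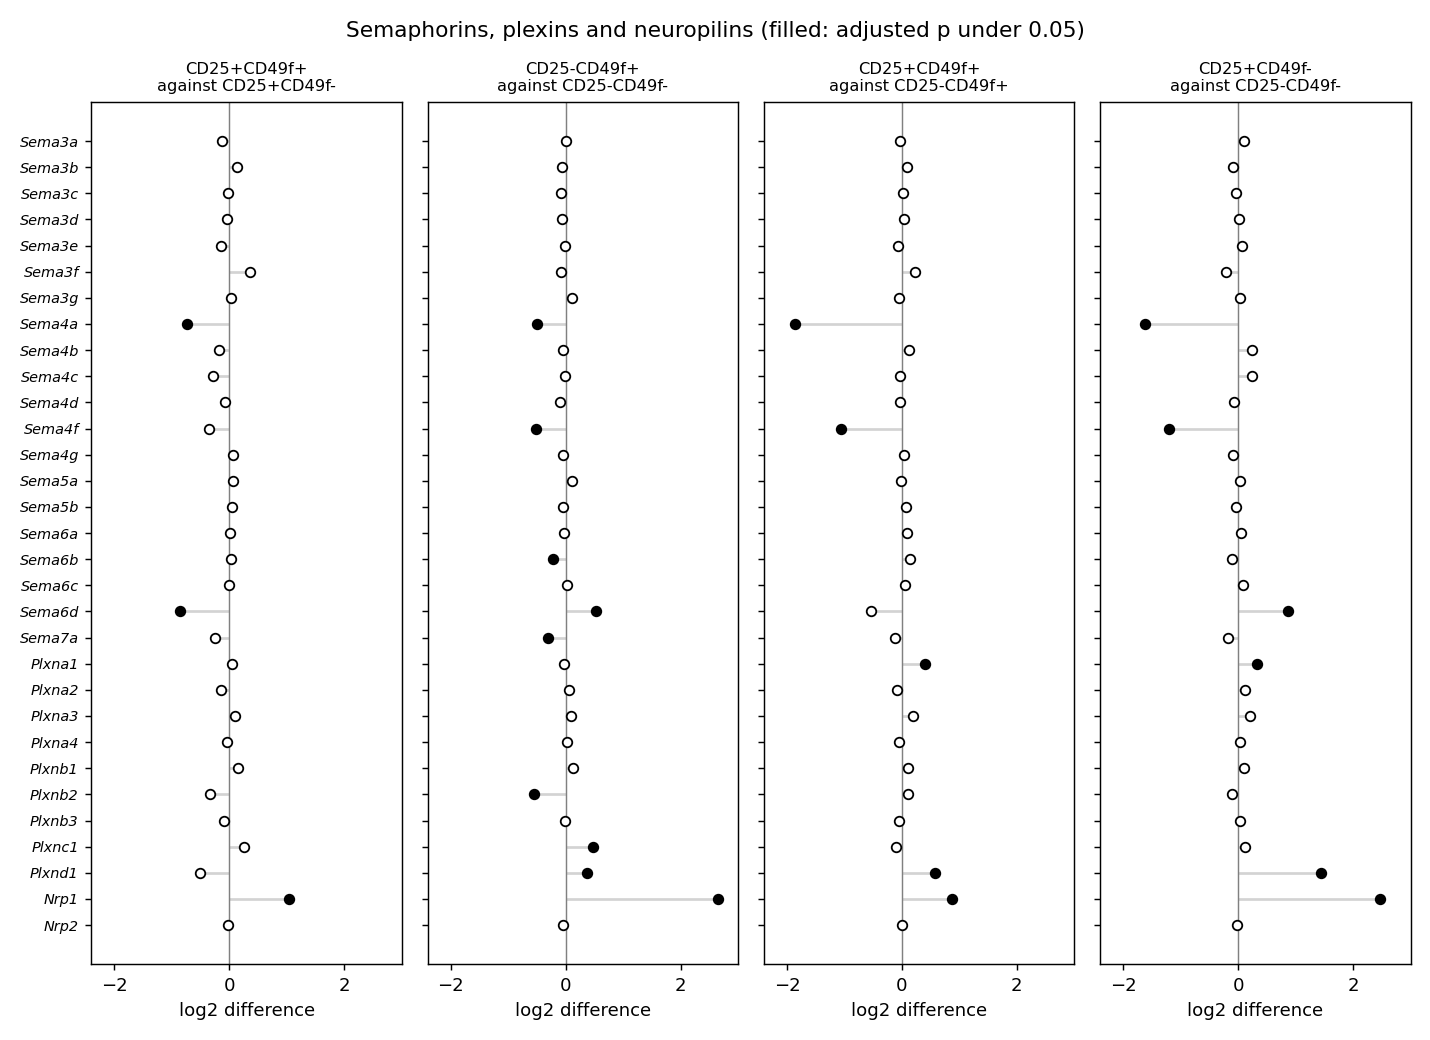
Log2 differences (horizontal axis) of the semaphorins, plexins and neuropilins on the array in the 4 comparisons that change 1 surface protein; filled points have a limma adjusted p under 0.05. The largest values are those of Nrp1 to the right and of Sema4a and Sema4f to the left, and the class 3 semaphorins, Sema3a to Sema3g, have no filled point.

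Of 32 measured genes that act downstream of plexins and neuropilins, 0 were called by limma between the CD25+ gates (4 had an unadjusted p under 0.05), 5 were higher and 4 lower with CD49f in CD25- cells, and 6 were higher and 2 lower with CD25 in CD49f- cells. Over all genes 1.82%, 13.4% and 14% were called in these comparisons, in that order. Crmp1, a collapsin response mediator protein that carries semaphorin signals to the cytoskeleton, averaged 6.55, 7.81, 7.14 and 7.43 by gate in the same order. It was 1.26 ± 0.08 (SE) higher with CD49f in CD25- cells (limma adjusted p = 9.08e-12). Mical3, a relative of the plexin-binding oxidase Mical1, was higher with CD25 by 1.02 ± 0.11 (SE) in CD49f+ cells and by 0.52 ± 0.11 (SE) in CD49f- cells. These calls of Crmp1 and Mical3 held with each array left out, and the 0.52 was 0.29 and not called in arrays with Y-linked transcripts (adjusted p = 0.354). Rnd3, also on this list, averaged 7.16, 5.56, 5.12 and 5.27 by gate in the same order. With each array left out in turn, its CD49f difference in CD25- cells lay between -1.79 and -1.49. Its CD25 difference in CD49f- cells lay between -2.22 and -1.88, and its interaction between 1.59 and 1.94. These Rnd3 differences were called in all 23 fits. In arrays without Y-linked transcripts the interaction was 1.58 and not called (limma adjusted p = 0.139).

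The genes most like each member over the 23 arrays were those with the smallest root mean square difference after centring, among genes with a mean of at least 6.5. For Nrp1 these were Ptger2, a prostaglandin E receptor (0.289), Tiam1, an exchange factor of the GTPase Rac (0.342), and Gbp3, a guanylate-binding protein (0.368), against a spread of Nrp1 itself of 1.43. For Sema4a they were Il1rl2, a receptor of interleukin-36 (0.302), Themis, a T cell receptor signalling protein (0.305), and App, the amyloid precursor protein (0.312), against a spread of 0.92. Plxnd1 was nearest to Rabgap1l (0.262), Lrrc61 (0.264) and Fah (0.265), against a spread of 0.61. Plxnb2 was nearest to Rgs12 (0.128), Ogfrl1 (0.166) and H2-DMa (0.176), the last a gene of antigen presentation, against 0.30. For Plxnc1 (Gpr155, 0.162) and Sema4d (Nomo1, 0.0738) the distance was a larger part of their own spreads of 0.33 and 0.10. The arrays share gates, so these distances describe the common order of the gates.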

How the data were processed

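Total RNA of 23 samples was measured on oligonucleotide arrays, and the deposited table holds log2 expression values. RMA is the tool that the submitters' processing notes name for the authors' values (version not stated there), and the values were used without rescaling. Of 45101 probe sets, 34958 named a single gene, 932 several and 9211 none. Of the 34958, 34754 matched RefSeq (GRCm38.p6) by Entrez identifier. The probe set with the highest mean stood for a gene.

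The 4 groups were fitted together with limma 3.58.1 in R 4.3.3, over 18194 genes and again over all probe sets, with Benjamini-Hochberg adjustment and calls at an adjusted p under 0.05. Intervals are 95%. The fit was tested on simulated data. Values are not compared between probe sets, and p-values measure only the spread between these samples, whose number limits the precision. Named were the 6 genes, some of the called genes of the lists (at most 6 per list and comparison), and up to 3 nearest genes of each member. Other list genes were called and are not described, among them Sema6b, Cd72, L1cam, Fes, Fyn, Farp1, Limk1, Arhgef12 and Dpysl2. The members and lists were chosen with earlier results of these data known. Alternatives were each array left out, array weights, scaling, probe set rules, thresholds, the replicate number as a block and Y-linked transcripts. A fit leaving out the 4 outlying arrays, and one with the Actb probe difference (3' minus 5' end) as a covariate, were chosen after seeing the data. Figures used Python 3.11.15 and matplotlib 3.10.9. Same-numbered replicates were not treated as pairs.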

Additional observations from a re-analysis of the deposited data

Results flagged for a closer look

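Of 68 groups of arrays tested for a far value, 10 held one. Chance gives about 1 in 20. In CD25-CD49f- cells replicate 7 was lowest for Nrp1 probe set 1448943_at (5.726, next 7.07), highest for Sema4a probe set 1448110_at (10.423, next 9.875) and highest for Plxnc1 probe set 1443434_s_at (4.018, next 3.494). This array also had the highest dendritic cell markers of all arrays, 8.54. By Nrp1 probe set 1418084_at it was also the lowest of its gate, at 6.448, next to 6.463 in replicate 1.

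In CD25-CD49f+ cells replicate 1 was lowest for Nrp1 probe sets 1448943_at (9.212, next 9.878) and 1448944_at (8.072, next 8.633) and for Plxnc1 probe sets 1450905_at (7.98, next 8.633) and 1423213_at (7.768, next 8.015). Both of these arrays are among the 4 that stood apart from their group over all probe sets.

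The remaining far values were Sema4d probe set 1420823_at in CD25-CD49f+ replicate 4 (6.311, next 6.142), Sema4d probe set 1434596_at in CD25+CD49f- replicate 2 (6.238, next 5.796) and Plxnc1 probe set 1450905_at in CD25+CD49f+ replicate 2 (8.712, next 8.532).

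The CD49f difference differed between CD25+ and CD25- cells for Nrp1 (interaction -1.60, limma adjusted p = 0.00397) and for Plxnd1 (interaction -0.87, limma adjusted p = 0.00636).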

How the results depend on the processing

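Of 1632 differences of the 6 genes under another setting, 0 of those called changed sign. With an array left out 909 of 966 kept their call, and under the other settings 619 of 666. The scalings moved the median of all genes by less than 0.1.

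For CD25+CD49f+ against CD25+CD49f- the 2 called members became 1 to 3 with an array left out, 4 with array weights, 1 with median scaling, every probe set, an adjusted p under 0.01, Y-linked transcripts as a block or the Actb covariate, and 0 in arrays with or without Y-linked transcripts alone. For CD25-CD49f+ against CD25-CD49f- the 5 became 3 to 5 with an array left out (3 without CD25-CD49f- replicate 1 or CD25-CD49f+ replicate 6), 3 in the compared groups alone or at 0.01, and 1 and 2 in arrays without and with Y-linked transcripts. For CD25+CD49f+ against CD25-CD49f+ the 3 became 1 to 3 with an array left out (1 without CD25+CD49f+ replicate 4), and 1 at 0.01 or in Y-linked arrays alone. The 2 called interactions became 0 in Y-linked arrays.

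Of the 17 probe sets, the 5 called between the CD25+ gates became 1 and 3 in arrays without and with Y-linked transcripts, and the 9 called between the CD25- gates became 4 without them. The 5 called between the gates with CD25 alone and CD49f alone became 4 to 9 with an array left out (9 without CD25-CD49f+ replicate 1), 9 with array weights or without the 4 arrays, and 3 at 0.01 or in arrays without Y-linked transcripts. The 4 called interactions became 2 and 1 in arrays without and with them.

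Over all genes the 332 calls between the CD25+ gates ranged from 105 to 762, the 2443 between the CD25- gates from 974 to 3742, the 1040 between the CD49f+ gates from 229 to 3083, the 2551 between the CD49f- gates from 1235 to 3659, the 2396 between both and neither protein from 1046 to 4071, the 1612 between CD25 alone and CD49f alone from 555 to 2963, and the 966 interactions from 276 to 2273. The lowest were in Y-linked arrays and the highest with array weights. The cause was not tested.

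Judged by Y-linked transcripts, replicate numbers did not pair samples across all gates. Whether they pair samples within the CD25+ gates was not settled. Of 29 same-numbered pairs 14 correlated above 0.1 (range -0.51 to 0.41), and 6 of the pairs correlated best with their own number. In both CD25+ gates replicates 1 and 2 lacked Y-linked transcripts and replicates 3 and 4 showed them. In both CD25- gates replicates 3 and 4 lacked them. Between the CD25- gates replicates 2 and 5 differed. Of these gates, replicate 2 showed Y-linked transcripts only in CD25-CD49f- cells and replicate 5 only in CD25-CD49f+ cells. With the replicate block Nrp1 was not called between the CD49f+ gates (0.84, limma adjusted p = 0.0512) and Plxnc1 was called between the gates with both and with neither protein (0.44, adjusted p = 0.0226), and no other call of the 6 genes changed.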
